A study of Mus musculus with 2 samples.

Results

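Cells of the anorectal epithelium that devoted a large share of their transcripts to Cst6, the gene of the secreted protease inhibitor cystatin M/E, were picked out of the cluster that the study named Suprabasal. A Suprabasal cell was taken as Cst6-rich when Cst6 made up 1% or more of its unique molecular identifiers (UMIs, each counting 1 captured mRNA molecule). In all, 516 of 1219 Suprabasal cells passed, 135 of 187 in the Normal library and 381 of 1032 in the Wounded library, out of 939 and 4147 cells with a cluster name. The other 52 and 651 Suprabasal cells are the contrast used below. Both libraries came from K17CreERT2;R26RGFP mice on the C57/BL6J background, in which the promoter of Krt17 drives a tamoxifen-inducible Cre and recombined cells carry the green reporter ZsGreen1 from the Rosa26 locus. All mice, controls included, had received 2 tamoxifen injections. Tissue of pooled mice was taken either without injury (Normal) or 1 week after an EDTA wound (Wounded), and epithelial cells sorted by FACS, in a scheme built on Epcam and the reporter, were run on the 10x Genomics 3′ platform as 1 library per condition. The Normal library held 17617944 UMIs over 2564 barcodes and the Wounded library 88260050 UMIs over 17216 barcodes. A single barcode occurred in both libraries, and 0 of the named cells shared one.

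Cystatin M/E blocks the lysosomal cysteine proteases legumain and cathepsin L, which act on the transglutaminases and other enzymes that build the cornified layer of stratified epithelia. Kallikrein-related peptidases are secreted serine proteases that cut the desmosomal links between the outermost keratinocytes, and LEKTI, the product of Spink5, restrains several of them. Both systems work in the late layers of the epidermis and in the ducts that open through it, such as the upper hair follicle and the ducts of sebaceous and anal glands, where Krt79, Defb6 and Plet1 are also made. Cst6, Klk14 and Gabrp, the pi subunit of the GABA-A receptor, were the genes given to mark these cells.

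Because 4 kallikrein genes carry much of what follows, the stretches just ahead of them are printed here, together with that of Gabrp. Klk14 (chr7:43690418-43695536), Klk13 (chr7:43712567-43727534), Klk10 (chr7:43781035-43785410) and Klk7 (chr7:43811294-43816359) lie on the plus strand of GRCm38 within 126 kb of each other, while Gabrp (chr11:33550781-33578959, minus strand) and Cst6 (chr19:5344705-5349574, minus strand) lie elsewhere. The windows come from RefSeq annotation of GRCm38.p6, end at the base before the gene as GENCODE M21 places it, and run 5′ to 3′ on the strand of the gene: chr7:43690168-43690417 for Klk14, chr7:43712317-43712566 for Klk13, chr7:43780804-43781034 for Klk10, chr7:43811044-43811293 for Klk7 and chr11:33578960-33579207 for Gabrp. Capitals mark the letters CCACCC on either strand, so that GGGTGG is the same match read on the other strand.
Klk14: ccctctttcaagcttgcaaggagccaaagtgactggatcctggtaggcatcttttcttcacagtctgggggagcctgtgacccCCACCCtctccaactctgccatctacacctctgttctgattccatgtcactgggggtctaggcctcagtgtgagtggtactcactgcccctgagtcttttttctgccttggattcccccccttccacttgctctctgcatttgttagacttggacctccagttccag
Klk13: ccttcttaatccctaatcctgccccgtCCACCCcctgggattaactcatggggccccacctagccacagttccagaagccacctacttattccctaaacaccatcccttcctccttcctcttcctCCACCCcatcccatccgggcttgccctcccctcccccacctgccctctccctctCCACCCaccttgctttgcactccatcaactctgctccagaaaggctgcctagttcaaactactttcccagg
Klk10: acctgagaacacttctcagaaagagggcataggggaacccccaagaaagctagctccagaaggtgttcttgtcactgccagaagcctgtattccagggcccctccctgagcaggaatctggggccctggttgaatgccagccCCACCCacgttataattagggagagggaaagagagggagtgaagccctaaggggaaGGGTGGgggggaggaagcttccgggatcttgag
Klk7: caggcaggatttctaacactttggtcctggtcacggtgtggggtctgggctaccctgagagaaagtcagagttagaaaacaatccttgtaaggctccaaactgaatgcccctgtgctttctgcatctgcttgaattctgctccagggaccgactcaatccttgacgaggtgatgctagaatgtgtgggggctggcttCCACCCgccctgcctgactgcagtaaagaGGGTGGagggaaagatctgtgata
Gabrp: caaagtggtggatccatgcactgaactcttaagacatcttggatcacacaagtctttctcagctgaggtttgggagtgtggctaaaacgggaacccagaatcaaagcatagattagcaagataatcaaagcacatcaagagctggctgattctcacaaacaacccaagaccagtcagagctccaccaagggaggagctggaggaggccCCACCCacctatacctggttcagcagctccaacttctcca
The letters CCACCC or GGGTGG occurred 3 times ahead of Klk13, 2 times ahead of Klk10, 2 times ahead of Klk7, 1 time ahead of Klk14 and 1 time ahead of Gabrp. The same letters were in 28.1% of all 32851 promoter windows of 250 bases. They were in 44.1% of the 102 windows of genes higher in the Cst6-rich cells of both libraries (85 of 109 genes matched) and in 47.6% of the 63 windows of genes lower in both (55 of 71 matched), so both directions held them more often than the whole and about as often as each other. TGANTCA, searched on both strands, was in 16.7% of windows of the higher genes, 9.52% of those of the lower genes and 6.75% of all. TATAAA was in 12.7%, 6.35% and 12.4%, and GATAAG in 4.90%, 3.17% and 6.55%. None of these last 3 motifs was in the 5 printed stretches. The motifs do not overlap one another and were chosen after the sequences had been seen, and a match is a description of letters only.

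Cst6 took 11.7% of all UMIs of the Cst6-rich cells in the Normal library and 10.1% in the Wounded library. In the other Suprabasal cells it took 0.260% and 0.130%. The median Cst6-rich cell stood at 6.06% and 5.97%, and single cells ranged from 1.02% to 44.0% and from 1.00% to 49.3%. Since these values chose the cells, they are a description and no test goes with them. In Rectum cells, whose glandular epithelium should make little of it, Cst6 was at 0.0199% and 0.0895%, and after thinning each cell to 2000 UMIs 36.7% and 24.3% of Rectum cells still held a Cst6 UMI, against 80.0% and 44.2% of other Suprabasal cells and all Cst6-rich cells. The Wounded share rested on 1 Rectum cell, which held 3179 of the 3680 Cst6 UMIs. The median Rectum cell stood at 0.0170% in the Normal and 0.0081% in the Wounded library. Free transcripts of an abundant gene can enter any droplet, so a few Cst6 UMIs in a cell are not read here as expression. The limit ran through a continuous range: the highest cells below it stood at 0.992% and 0.995%, the lowest above it at 1.02% and 1.00%, with 18 and 46 cells between 0.5% and 1% and 13 and 60 between 1% and 2%. At the upper end, 52 and 123 cells held 10% or more, and 17 and 46 cells 20% or more.

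**Figure D1:**
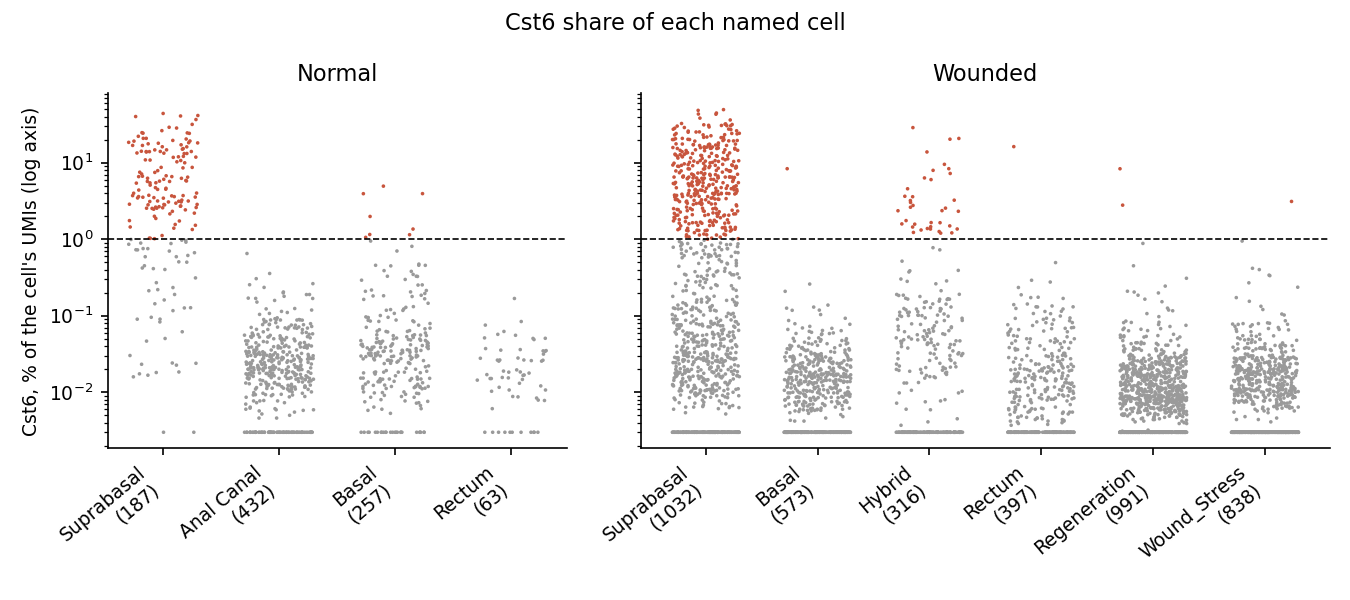
Cst6 as a percentage of each cell's UMIs (log axis) for every named cell of the Normal and Wounded libraries, by cluster name, with cell numbers in parentheses, the 1% limit as a dashed line, cells at or above it in red and cells with 0 Cst6 UMIs drawn along the bottom. Nearly all red points sit in Suprabasal, where 135 of 187 and 381 of 1032 cells passed, with 38 of 316 Hybrid and 8 of 257 Normal Basal cells as the main others.

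The Cst6-rich cells had about the depth of the other Suprabasal cells in the Normal library and more depth in the Wounded library. Their median depth was 11658 UMIs in the Normal library, against 11062 for the other Suprabasal cells, and 15576 against 8145 in the Wounded library. Median genes per cell were 2639 against 2755 and 3053 against 2287. Once each cell was thinned to 2000 UMIs, the Cst6-rich cells showed fewer genes, 823 against 911 and 824 against 876. The 2000 UMIs include those of Cst6, so by construction fewer remained for other genes in the Cst6-rich cells. Mitochondrial transcripts took a median of 5.12% against 4.94% and of 7.10% against 9.82%, and ribosomal protein transcripts 19.3% against 24.7% and 19.1% against 26.6%. These shares of a library's cells carry no replicate error, since each condition was 1 library.

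Beside Cst6, and leaving aside mitochondrial and ribosomal protein genes, the genes with the most UMIs in these cells included many of stratified and ductal epithelium. All levels below are counts per 1000000 (CPM) of the summed UMIs other than Cst6, because a transcript at 10% or more of the total lowers the share of every other gene. UMIs of 3′ libraries are not divided by gene length, so levels are compared within a gene only. In the Normal library Lgals7, a galectin of stratified epithelia, was at 18361 CPM against 15276 in the other Suprabasal cells, Krt17 at 12053 against 5768, Defb6, a beta-defensin, at 11792 against 3128, Krtdap, a secreted protein of differentiating keratinocytes, at 11785 against 3989, and Krt79 at 8584 against 2263. After the wound Lgals7 was at 16597 against 9848 CPM, Krt17 at 12509 against 2619, Krt79 at 6913 against 581, Fabp5, a fatty acid carrier of keratinocytes, at 6913 against 2058, and Krtdap at 6868 against 432. Markers of ducts and of late differentiation thus stood side by side in these cells, and with no histology here they are called Cst6-rich Suprabasal cells.

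Each gene with 100 or more UMIs over both groups was compared between the Cst6-rich and the other Suprabasal cells within its library, and counted as higher or lower when the summed levels differed 2-fold or more. In the Normal library 147 of 2306 genes (6.37%) were higher and 132 (5.72%) lower. In the Wounded library 440 of 7515 genes (5.85%) were higher and 861 (11.5%) lower. Over the 2287 genes measured in both, 109 (4.77%) were higher in both libraries and 71 (3.1%) lower in both, and 2 went opposite ways. The 109 make up 75.2% of the 145 genes called higher in the Normal library and 49.5% of the 220 called higher in the Wounded library, and the 71 make up 54.2% of 131 and 74.0% of 96 genes called lower. The median log2 ratio of all genes was -0.00 in the Normal and -0.17 in the Wounded library. Because the cells were chosen on 1 of the measured genes, and because cells of 1 library are not replicates, these counts are descriptions, and the intervals given are exact binomial 95% intervals that cover counting error only.

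**Figure D2:**
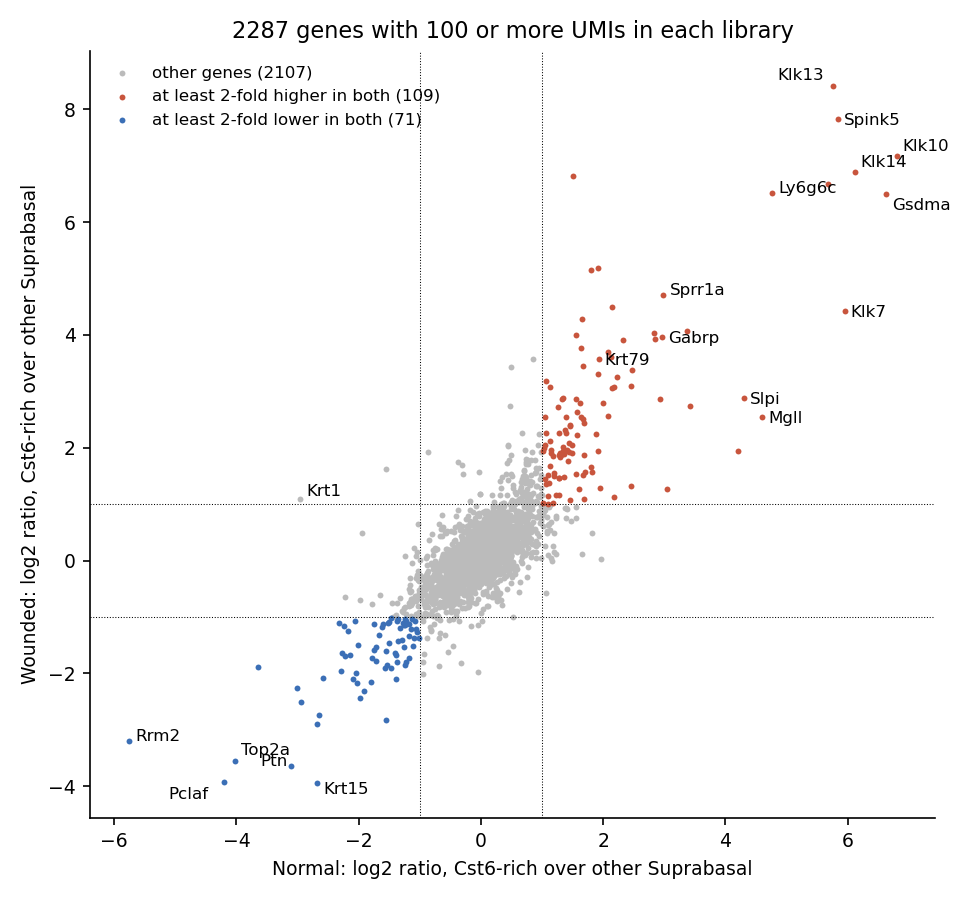
Log2 ratio of the summed level in Cst6-rich over other Suprabasal cells for the 2287 genes with 100 or more UMIs in each library, Normal on the horizontal and Wounded on the vertical axis, with dotted lines at 2-fold. The 109 genes in red were at least 2-fold higher in both and the 71 in blue at least 2-fold lower in both, with kallikreins, Spink5 and Gsdma at the upper right and Rrm2, Pclaf, Top2a and Krt15 at the lower left. Klk14 is drawn at its bound in the Wounded library.

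Among the proteases, Klk14, a trypsin-like kallikrein that can activate other kallikreins, had 177 UMIs (118 CPM) in the Cst6-rich cells of the Normal library and 1 UMI (1.71 CPM) in the other Suprabasal cells, a log2 ratio of 6.11 (3.62 to 11.42). In the Wounded library it had 345 UMIs (63.8 CPM) against 0, at least 6.88 on the log2 scale when set against 3 UMIs over the group. Klk14 had 0 UMIs in all named cells outside Suprabasal except for 1 UMI in Wounded Basal cells. Its transcripts were nevertheless held by few cells: 15 of 135 and 11 of 381 Cst6-rich cells had a Klk14 UMI, and 1 cell held 88 of the 177 (49.7%) and another 285 of the 345 (82.6%). Without that 1 cell of each library the log2 ratio was 5.13 in the Normal library and at least 4.36 in the Wounded library.

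Klk10, a kallikrein without a well-defined substrate, was at 761 against 6.83 CPM in the Normal library (log2 6.80) and at 440 against 3.06 CPM in the Wounded library (7.17). Klk13 was at 646 against 11.95 CPM (5.76) and at 185 against 0.541 CPM (8.42), the latter from 1000 against 3 UMIs. Klk7, the chymotrypsin-like enzyme of skin shedding, was at 106 against 1.71 CPM (5.95, from 158 against 1 UMI) and at 80.8 against 3.78 CPM (4.42). All 4 had far higher levels in the Cst6-rich cells of either library, which is a description only. Klk11 differed less in the Normal library, with a log2 ratio of 0.49, than in the Wounded library, with 3.44, while Klk8 was at -0.41 and 0.79. Klk12 was below the 100 UMI minimum with 65 against 1 UMI and 94 against 0, as were Klk6, with 8 against 0 and 52 against 0, and Klk5, a main activator of the skin cascade, with 3 against 0 and 23 against 3. Of the kallikreins measured, 4 of 6 were higher in the Normal library (median log2 5.85) and 5 of 6 in the Wounded library (median 5.65), and 0 were lower. In both libraries the 4 genes with the largest ratios passed the UMI minimum almost wholly through the Cst6-rich cells. The Wounded median also counts Klk14 at its bound. These ratios, counts and medians are therefore no support for a difference. Outside Suprabasal, Klk10 was at 63.0 CPM in Normal Anal Canal cells and 28.8 CPM in Wounded Basal cells, and Klk13 at 22.4 and 26.3 CPM, above the other Suprabasal cells, while Rectum cells held 4 and 9 UMIs of Klk10.

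Several protease inhibitors were also higher in the same cells. Spink5, whose product LEKTI is cut into fragments that bind kallikreins, was at 1071 against 18.8 CPM in the Normal library (log2 5.83) and at 1391 against 6.13 CPM in the Wounded library (7.83). Anal Canal cells of the Normal library had 250 CPM and Basal cells of the Wounded library 359 CPM, so that the log2 ratio over the next highest cluster was 2.10 and 1.96. Slpi, a secreted inhibitor of neutrophil elastase, was at 5307 against 268 CPM (4.31) and at 2309 against 314 CPM (2.88). Wfdc18, another protein with a whey acidic protein domain, was at 226 against 41.0 CPM (2.46) and at 1142 against 134 CPM (3.09). Spint1, the membrane inhibitor of matriptase and hepsin, had log2 ratios of 1.69 and 1.09, and Cstb, an intracellular cystatin, 0.96 and 1.44. Of the other cystatins and inhibitors, 4 of 10 were higher and 2 lower in the Normal library (median 0.82), and 6 of 11 were higher and 1 lower in the Wounded library (median 1.09). The 2 lower genes in the Normal library were Csta1 (-1.94) and Stfa3 (-1.56), both intracellular stefins of a family with near-identical copies, so their counts are uncertain. Csta1 and Stfa3 were at 0.48 and 1.63 in the Wounded library, where the lower gene was Wfdc2 (-1.14).

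Of the enzymes that cystatin M/E is known to inhibit, Ctsl could be compared and Lgmn could not. Ctsl was at 230 against 78.6 CPM in the Normal library (log2 1.55) and at 229 against 78.9 CPM in the Wounded library (1.54). Lgmn, the gene of legumain, was hardly detected, with 9 against 5 UMIs and 29 against 42 UMIs, and no ratio is read from it. The aspartic protease Ctsd was higher as well (1.19 and 1.503), Ctsb stood at 0.66 and 1.05, and Ctsz, a carboxypeptidase, at -0.76 and -0.85. Casp14, a caspase of the cornifying layer, was at 20.7 against 3.42 CPM in the Wounded library (2.60). The cross-linking enzyme genes were low: Tgm1 had 25 against 2 UMIs and 59 against 5, and Tgm3 had 0 against 0 and 43 against 37. Counted together, 2 of 5 measured genes of these targets and cross-linking enzymes were higher in the Normal library (median 0.66) and 4 of 6 in the Wounded library (median 1.28), with 0 lower.

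Gabrp, the third marker, had 100 UMIs (66.8 CPM) against 5 (8.54 CPM) in the Normal library, a log2 ratio of 2.97 (1.70 to 4.62), and 393 UMIs (72.7 CPM) against 26 (4.68 CPM) in the Wounded library, a log2 ratio of 3.96 (3.38 to 4.59). Its low counts were spread over more cells than those of Klk14, with a UMI in 45 of 135 (33.3%) and 183 of 381 (48.0%) Cst6-rich cells, against 2 of 52 and 18 of 651 others and 0 Rectum UMIs in either library. Among channels and pumps of duct epithelium, Scnn1a, the alpha subunit of the epithelial sodium channel, had 35 against 0 UMIs and 145 against 31 UMIs (log2 2.26), Atp1b1 of the sodium pump was at 0.98 and 1.52, and Clic3, a chloride intracellular channel protein, at 2.33 and 3.90. Carbonic anhydrases differed from one another: Car2 was at -0.29 and 1.54, and Car12 at -0.69 and -1.87. In this list 1 of 7 genes was higher in the Normal library (median 0.72), and 5 of 10 were higher and 2 lower in the Wounded library (median 1.04). The 1 higher gene of the Normal library was Gabrp itself, a given marker, which is also among the 5 of the Wounded library. In the Normal library it passed the UMI minimum almost wholly through the Cst6-rich cells, so that count is no support for a difference.

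Most of the measured genes in the list of the upper hair follicle and ducts were higher. Krt79, a keratin of the follicle canal, had a log2 ratio of 1.92 in the Normal and 3.57 in the Wounded library, and Defb6 of 1.91 and 3.31. Plet1, a surface protein of the junctional zone of the follicle, was at 485 against 198 CPM (1.29) and at 380 against 101 CPM (1.92), Teddm3 at 773 against 246 CPM (1.65) and at 423 against 21.8 CPM (4.28), and Atp6v1c2, a subunit of the proton pump, at 1.67 and 3.45. Krt17, the gene that drives the Cre, was at 1.06 and 2.26. Gata6, a transcription factor of the sebaceous duct, was at 0.64 in the Wounded library, Lrig1, which marks the stem cells of the follicle isthmus, at -0.97, and Sostdc1, a secreted antagonist of BMP and Wnt signals, at -3.78. In all, 6 of 7 genes of this list were higher in the Normal library (median 1.65), and 7 of 10 were higher and 1 lower in the Wounded library (median 2.09). Cldn4, a tight junction claudin, was at 148 against 20.5 CPM (2.85) and at 116 against 7.57 CPM (3.94), and Elf5, a transcription factor of luminal and secretory epithelium, at 2.23 and 3.25. With these, 3 of 4 and 5 of 12 simple epithelial and luminal genes were higher and 0 lower (medians 1.89 and 0.72). In the Normal library Cldn4 (221 against 12 UMIs) and Elf5 (132 against 11) passed the UMI minimum almost wholly through the Cst6-rich cells. The Normal count and median of this list are therefore no support for a difference. Krt8 was at 1.55 and 0.75, while in the Wounded library Krt18 (-0.29) and Krt19 (0.17), which are abundant in rectal glands, stayed under 2-fold.

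Most of the measured epidermal differentiation genes were higher too, and the difference between libraries was not tested. Sprr1a, a precursor of the cornified envelope, was at 2539 against 321 CPM (log2 2.98) and at 3810 against 146 CPM (4.70). Sbsn was at 1020 against 231 CPM (2.15) and at 1545 against 186 CPM (3.06), Dsg1a, a desmosomal cadherin, at 2.13 and 3.60, and Ivl, the gene of involucrin, at 1.36 and 1.89. Krtdap was at 1.56 and 3.99. Flg, the gene of filaggrin, had 106 against 1 UMI in the Wounded library and 0 against 1 in the Normal library. Lor, the main protein of the epidermal cornified envelope, had 1 against 0 UMIs and 0 against 7. The interfollicular keratins Krt1 and Krt10 had log2 ratios of -2.95 and -0.87 in the Normal library and of 1.10 and 1.92 in the Wounded library. The UMIs of Krt10 were concentrated in few cells: in the Normal library 5 cells held 87.0% of the 154 UMIs of the other Suprabasal cells and 45.4% of the 216 of the Cst6-rich cells, and in the Wounded library 5 cells held 64.9% of the 808 UMIs of the Cst6-rich cells and 41.6% of the 219 of the others. Of the list, 6 of 11 genes were higher and 1 lower in the Normal library (median 1.02), and 13 of 14 were higher and 0 lower in the Wounded library (median 1.98). Flg passed the UMI minimum in the Wounded library almost wholly through the Cst6-rich cells.

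Other genes with large ratios in both libraries had varied roles. Gsdma, a pore-forming gasdermin of keratinocytes, was at 168 against 1.71 CPM (log2 6.62) and at 180 against 1.98 CPM (6.51). Ly6g6c, a lipid-anchored surface protein, was at 1529 against 56.4 CPM (4.76) and at 1753 against 19.1 CPM (6.52), and AA467197 at 2654 against 258 CPM (3.36) and at 1804 against 108 CPM (4.07). Elovl4, which makes the very long fatty acids of barrier lipids, was at 2.48 and 3.39, Mgll, a monoacylglycerol lipase, at 4.60 and 2.54, Psapl1 at 2.83 and 4.03, Adig at 3.41 and 2.74 and the desmosomal Dsc2 at 2.94 and 2.86. Of the 109 genes higher in both libraries, 93 in the Normal library and 77 in the Wounded library were at least 2-fold above every other named cluster. For 68 and 33 of the 109 the next highest cluster was the other Suprabasal cells, so that the choice of genes fixed the result. Of the genes whose next highest cluster was another one, 25 of 41 and 44 of 76 were 2-fold above it. Mgll was among the exceptions, with 231 CPM in the Cst6-rich cells of the Wounded library and 287 CPM in the Regeneration cluster.

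Basal layer and cell cycle genes were among those lower in these cells. The contrast cells matter here: in the Wounded library the other Suprabasal cells had more Krt15 (1928 CPM) and Ptn (328 CPM) than the Basal cluster (1260 and 233 CPM). In the Normal library they had less Krt15 (1224 against 2883 CPM) and about as much Ptn (376 against 354 CPM). Krt15, a keratin of basal cells, was at 190 against 1224 CPM in the Normal library (log2 -2.69) and at 126 against 1928 CPM in the Wounded library (-3.94), and Krt5 at -1.71 and -1.78. Krt14, the partner of Krt5, was at -0.02 and 0.43. Trp63, the master regulator of stratified epithelium, was at -0.89 and -1.38, and Col17a1, a hemidesmosomal collagen, at -3.51 in the Wounded library. Ptn, a secreted growth factor, was at -3.11 and -3.64, and Lmo1 at -2.68 and -2.90. Of the basal list 3 of 5 and 12 of 13 genes were lower and 0 higher (medians -1.41 and -1.86). Of the cell cycle list 3 of 3 and 13 of 14 were lower and 0 higher (medians -4.02 and -3.86), with Pclaf, a partner of the replication clamp, at -4.21 and -3.92, Top2a, a topoisomerase of dividing cells, at -4.02 and -3.55, and Rrm2, which supplies nucleotides for DNA synthesis, at -5.76 and -3.19. Hmgb2 (-2.65 and -2.74), Stmn1 (-2.94 and -2.50), Cks2 (-3.01 and -2.26) and Fth1 (-2.10 and -2.11) completed the named lower genes, with Fth1 uncertain because processed copies of ferritin genes may share its reads. A UMI of Mki67, Top2a, Cdk1 or Birc5 was present in 11 of 135 (8.15%) and 40 of 381 (10.5%) Cst6-rich cells, against 18 of 52 (34.6%) and 201 of 651 (30.9%) others. With all such cells left out of both groups, 35 genes in the Normal and 511 in the Wounded library were lower, and 11 were lower and 61 higher in both. In the Normal library Krt15 was then at -0.52, Fth1 at -0.39, Hmgb2 at -0.34, Stmn1 at -0.78 and Cks2 at -0.81, all under 2-fold. In the Wounded library Krt15 and Fth1 stayed past 2-fold, while Hmgb2 (-0.90) and Cks2 (-0.20) did not. Pclaf and Rrm2 were left with 11 against 12 and 9 against 9 UMIs in the Wounded library and with 3 UMIs or fewer per group in the Normal library, and Top2a has none by construction. Fewer cells and fewer measured genes remained in that comparison (124 against 34 and 341 against 450 cells).

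Ratios of regulators were mostly smaller. Of the squamous and ductal transcription factors, 0 of 7 were higher and 1 lower in the Normal library (median 0.68), and 4 of 12 were higher and 1 lower in the Wounded library (median 0.30). Klf4, a driver of terminal differentiation, was at 0.69 and 1.19, Grhl1 at 0.78 and 1.09, and Ovol1 and Zfp750, both regulators of terminal differentiation, at 1.17 and 1.53 in the Wounded library. Barx2 was the lower one at -1.50 and -1.09. Of the Notch pathway 0 of 2 genes passed 2-fold in the Normal library (median 0.40), and in the Wounded library 1 of 7 was higher, the Notch target Nrarp (1.53), and 2 were lower, the ligand gene Jag2 (-4.41) and Notch1 (-1.22), with a median of 0.00. Immediate-early genes were at medians of 0.65 and 0.65, with 1 of 10 and 1 of 14 higher. Antimicrobial and alarm proteins had 1 of 2 and 1 of 5 genes higher, and 0 and 1 lower (medians 1.02 and 0.46). Mucosal and wound keratins had 1 of 2 and 2 of 3 higher (medians 0.89 and 2.26), among them Krt4 with 126 against 2 UMIs in the Wounded library. Krt4 passed the UMI minimum there almost wholly through the Cst6-rich cells. The Wounded count and median are therefore no support for a difference.

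Markers of other cell types were mostly low in these cells. The 12 rectum markers summed to 31.4 against 17.1 CPM in the Normal library, with 4 of them at 0 UMIs, and to 203 against 203 CPM in the Wounded library, with 0 of them at 0. Lgals4, a galectin of the gut, was the most abundant of them at 13.4 and 83.2 CPM, and of 7 measured in the Wounded library 0 were higher and 1 lower. The 6 fibroblast markers, led by Dcn and Col3a1, were at 8.68 against 20.5 and at 15.9 against 13.5 CPM, the 7 immune markers, led by Cd74, at 22.7 against 6.83 and at 5.92 against 9.55 CPM, the 5 endothelial markers, led by Pecam1, at 5.34 against 8.54 and at 2.59 against 3.24 CPM, and the 5 melanocyte markers at 0 against 0 and at 0.370 against 0.360 CPM, with Pmel alone detected. The 8 bulge and germ markers of the hair follicle were at 13.4 against 32.4 and at 20.5 against 40.5 CPM. Their most abundant member in the Cst6-rich cells, Tchh, at 7.34 and 15.7 CPM there, is best known from the inner root sheath and not from the bulge. Acta2, the main smooth muscle and myoepithelial marker here, had log2 ratios of -2.27 and -1.65. The smooth muscle list summed to 37.4 against 188 CPM and to 28.3 against 132 CPM. Of the sebaceous and anal gland markers 2 of 4 and 2 of 6 were higher (medians 1.09 and 0.77): Elovl4 in both libraries, Scd1 in the Normal library and Cidea, a lipid droplet protein, in the Wounded library, where it was at 93.8 against 14.1 CPM (2.74). The study's sort kept Epcam-positive cells and excluded cells with CD45, CD11b, CD31 or PDGFRa. The part of any remaining cells in the ratios above was not tested.

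**Figure D3:**
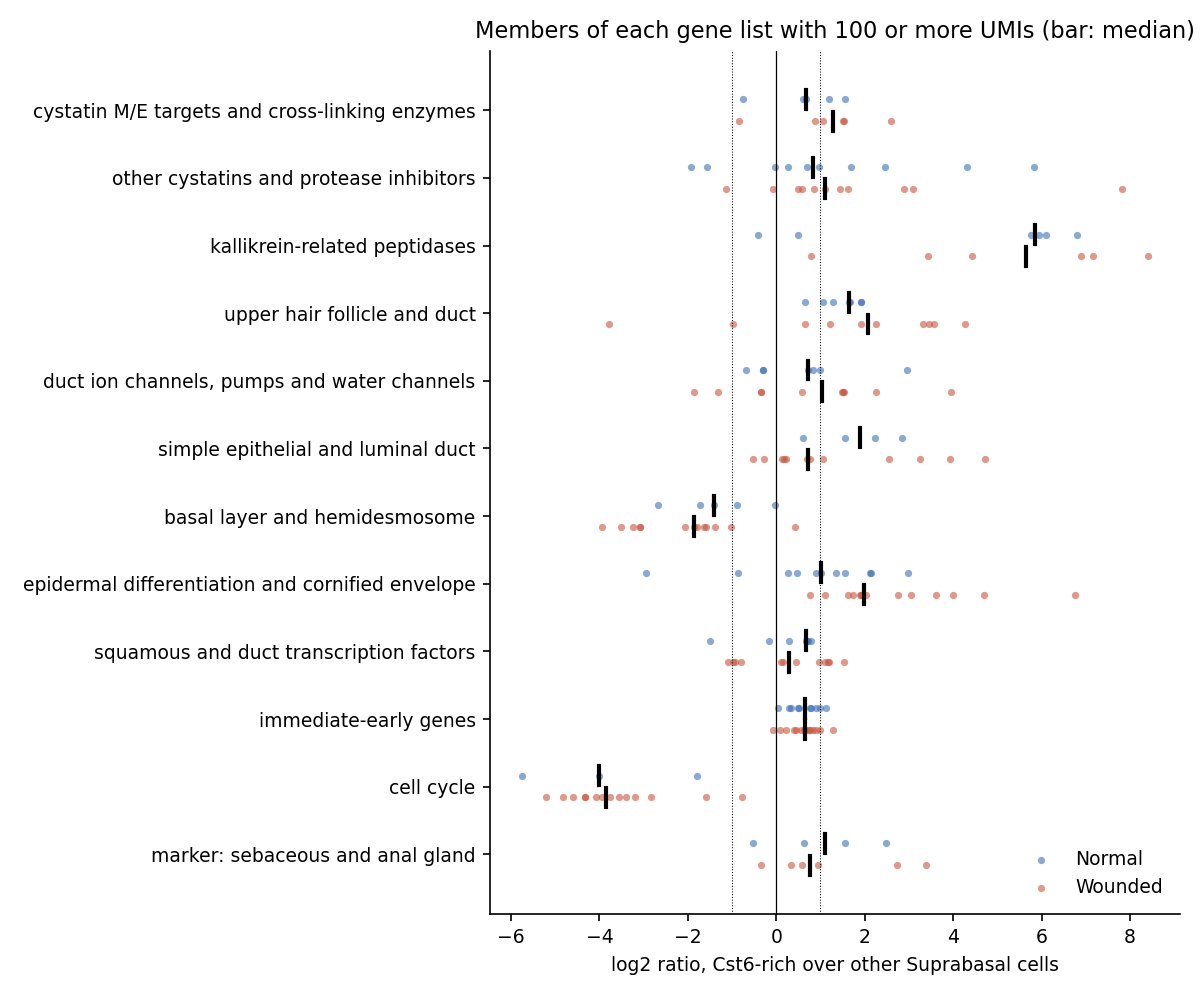
Log2 ratio of Cst6-rich over other Suprabasal cells for each gene with 100 or more UMIs in 12 of the gene lists, Normal in blue and Wounded in red, with a bar at each median and dotted lines at 2-fold. Most kallikreins lie beyond 3, upper follicle and differentiation genes lie mostly above 0, and basal and cell cycle genes lie below 0 apart from Krt14 in the Wounded library.

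The Cst6-rich cells varied widely among themselves, and genes followed the Cst6 share in different ways. Suprabasal cells were split by their Cst6 share into steps of under 0.1%, 0.1% to 1%, 1% to 5%, 5% to 15% and 15% or more, which held 19, 33, 58, 45 and 32 cells in the Normal library and 513, 138, 169, 132 and 80 cells in the Wounded library. Krt79 climbed early, from 259 through 3937, 6168 and 10270 to 10098 CPM in the Normal library and from 187 through 1712, 4888 and 8598 to 8152 CPM in the Wounded library, so that it was already level between the last steps. Defb6 went from 604 through 5238, 7937 and 14113 to 14614 CPM and from 105 through 1196, 2635 and 4529 to 5186 CPM. Gabrp went from 0 through 15.7, 23.4 and 84.8 to 107 CPM and from 0.7 through 16.05, 36.5 and 89.5 to 119 CPM.

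Klk7, Klk10, Klk13 and Klk14 had most of their UMIs in the last step, and Klk10 and Klk13 also stood higher in the 5% to 15% step than below it. Klk14 was at 0, 3.1, 1.7, 4.2 and 406 CPM in the Normal library and at 0, 0, 0, 1.5 and 316 CPM in the Wounded library. Klk10 was at 3.8, 9.4, 1.7, 55.1 and 2599 CPM and at 3.9, 0.7, 12.9, 84.5 and 2016 CPM. Klk7 was at 0, 3.1, 0, 23.3 and 343 CPM and at 2.2, 8.4, 27.1, 26.5 and 297 CPM. Klk13 was at 3.3 CPM in the 1% to 5% step, 40.3 in the next and 2209 in the last in the Normal library, and at 3.9, 49.5 and 824 CPM in the Wounded library. Spink5 was at 3.8, 31.3, 61.9, 443 and 3171 CPM and at 3.6, 13.3, 155, 1194 and 4413 CPM. Mki67, a marker of cycling cells, was at 143, 21.9, 1.7, 2.1 and 16.3 CPM and at 235, 71.2, 4.3, 4.5 and 8.3 CPM, its highest levels being in the cells with least Cst6.

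**Figure D4:**
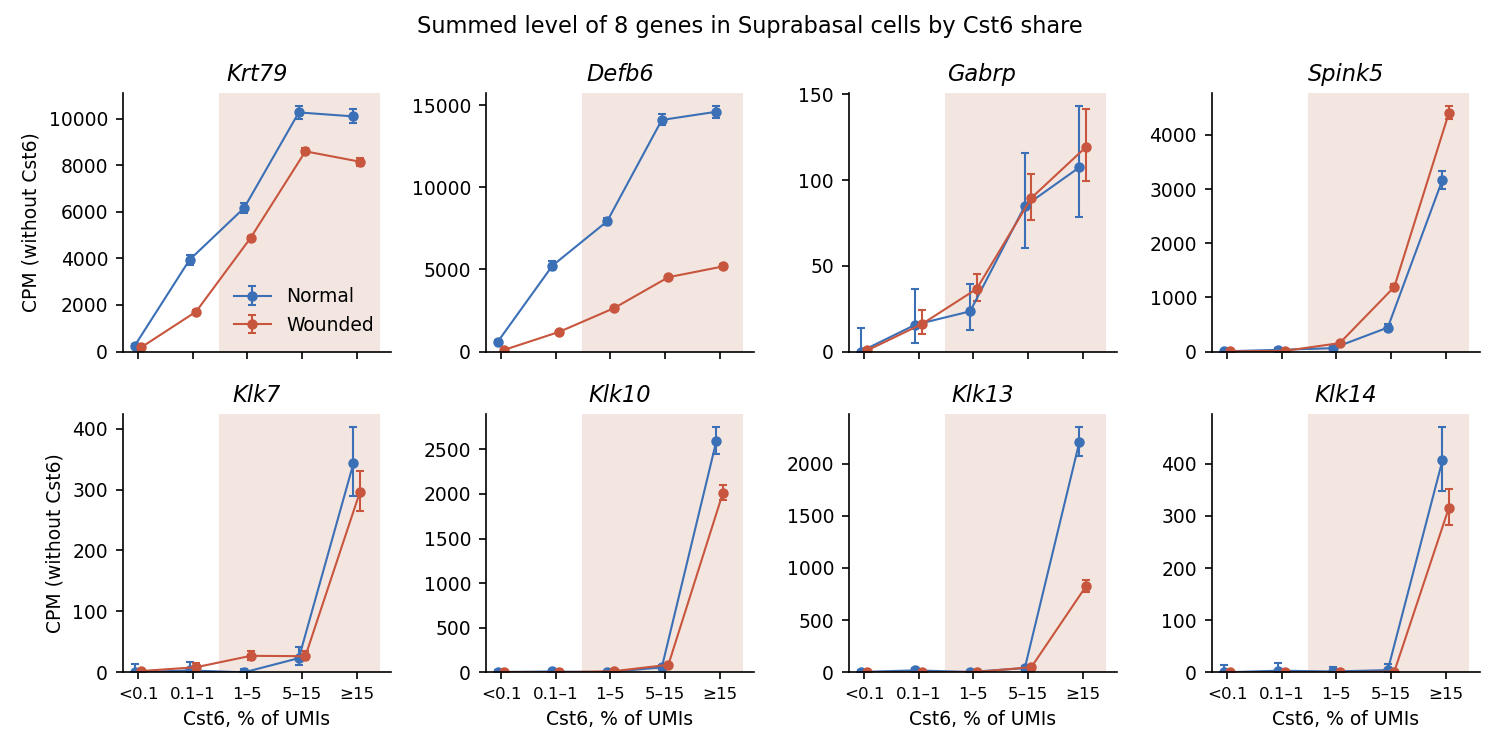
Summed level (CPM without Cst6) of 8 genes in Suprabasal cells by the cell's Cst6 share, Normal in blue and Wounded in red, with exact Poisson 95% intervals and the Cst6-rich steps shaded. Krt79, Defb6 and Gabrp climb over several steps, while Klk7, Klk10, Klk13 and Klk14 have most of their level in the last step, where Klk14 reaches 406 and 316 CPM.

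The 32 and 80 cells with 15% or more Cst6, a limit set after this spread had been seen, held 98.3% and 99.1% of the Klk14 UMIs of all Cst6-rich cells, 97.6% and 91.6% of the Klk10 UMIs, 97.8% and 89.2% of those of Klk13 and 93.0% and 73.5% of those of Klk7. Not all of these cells shared in this: 12 of 32 and 10 of 80 had a Klk14 UMI, 8 and 29 had a UMI of none of the 4 genes, and without the 1 cell with most Klk14 UMIs its level was 207 and 53.6 CPM. They held 28.6% and 20.01% of all UMIs other than Cst6, with median depths of 19060 and 18051 UMIs against 11133 and 15027 for the remaining Cst6-rich cells. Between these groups 73 of 1697 genes (4.3%) were at least 2-fold higher and 56 (3.3%) lower in the Normal library, 137 of 4766 (2.87%) higher and 283 (5.94%) lower in the Wounded library, and 53 of 1681 (3.15%) higher and 29 (1.73%) lower in both. Higher in both, beside the 4 kallikreins, were Spink5 (log2 3.78 and 2.80), Slpi (3.53 and 3.24), Flt1, a receptor of vascular growth factor (2.51 and 2.66), Stfa3 (2.27 and 2.28), Gsdma (2.27 and 2.27), Klk8 (2.64 and 1.86), Clic3 (2.16 and 1.89), Sprr1a (1.92 and 1.93) and Ivl (1.68 and 1.98). In the Normal library the 4 kallikreins passed the UMI minimum almost wholly through the cells with 15% or more Cst6. In the Wounded library this held for Klk14, with 342 against 3 UMIs. The limit was also set after their spread had been seen. Their place among the higher genes is therefore no support for a difference. Lower in both were Gas1, a growth arrest protein (-4.74 and -3.50), the cyclin gene Ccnd2 (-3.35 and -2.62), Psph (-2.38 and -2.21) and Krt5 (-2.01 and -2.50). Krt79 (0.34 and 0.30), Defb6 (0.45 and 0.56) and Gabrp (1.09 and 0.97) differed little or by about 2-fold.

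Kallikreins were also found together in single cells. Of Klk7, Klk10, Klk13 and Klk14, 0 were detected in 99 Cst6-rich cells of the Normal library, 1 in 11 cells, 2 in 12, 3 in 7 and all 4 in 6, and the median Cst6 share of these cells was 4.01%, 13.99%, 17.6%, 24.1% and 40.4%. In the Wounded library the same numbers were found in 292, 39, 26, 19 and 5 cells, with median Cst6 shares of 4.64%, 11.5%, 20.3%, 21.4% and 31.3%. At least 2 of the 4 were detected in 25 and 50 cells, of which 19 and 40 had 15% or more Cst6. Deeper cells reveal more genes, and the part of depth in this order was not tested. Among the other Suprabasal cells 9 of 52 and 18 of 651 had a UMI of any of the 4.

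**Figure D5:**
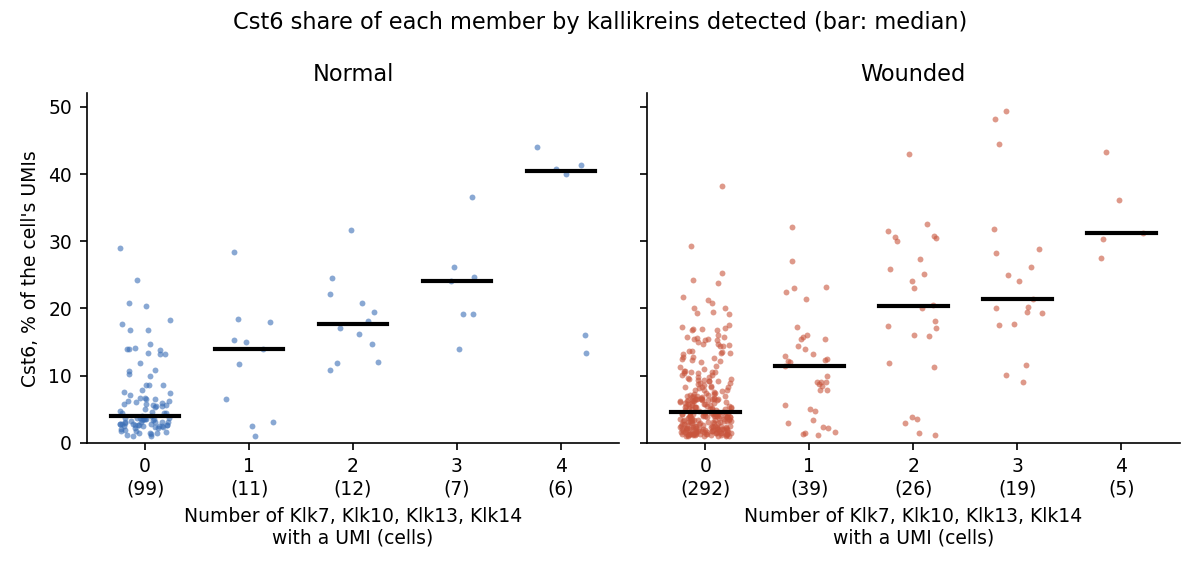
Cst6 share of each Cst6-rich cell (percent of its UMIs) by how many of Klk7, Klk10, Klk13 and Klk14 had a UMI in it, with cell numbers in parentheses and a bar at the median. The median share goes from 4.01% without any to 40.4% with all 4 in the Normal library and from 4.64% to 31.3% in the Wounded library, with wide overlap between neighbouring columns.

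Few cells of other clusters reached the same Cst6 share. In the Normal library 8 of 257 Basal cells did. Among Wounded cells 38 of 316 Hybrid cells did, with a median depth of only 3425.5 UMIs, along with 1 Basal, 1 Rectum, 2 Regeneration and 1 Wound_Stress cell. None of these cells held a Klk14 UMI, but Suprabasal cells at 1% to 5% Cst6 held hardly any either, with 1 in 58 Normal cells and 0 in 169 Wounded cells. The median Cst6 share was 1.67% in the 8 Normal Basal cells and 2.45% in the 38 Hybrid cells. Klk10 and Klk13 had 5 and 1 UMIs in these Basal cells and 8 and 8 in these Hybrid cells. Defb6 was at 6647 and 2201 CPM. Krt79 stood at 5403 CPM in the 8 Normal Basal cells and at 2707 CPM in the 38 Hybrid cells, where the rectal keratin gene Krt8 was at 922 CPM.

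The reporter that traces the progeny of Krt17-expressing cells could be read in the Normal library only. ZsGreen1 had a UMI in 9 of 135 Cst6-rich cells (6.67%), 2 of 52 other Suprabasal cells (3.85%), 17 of 432 Anal Canal cells (3.94%), 13 of 257 Basal cells (5.06%) and 0 of 63 Rectum cells, where a count of 0, taken as fewer than 3 cells, leaves room for 4.76% of cells with a UMI. After thinning to 2000 UMIs it had a UMI in 0 of 133 Cst6-rich cells, which by the same limit leaves room for 2.26%, in 0 of 50 other Suprabasal cells, in 4 of 397 Anal Canal cells and in 1 of 255 Basal cells. These limits hold for cells with a UMI, and a recombined cell can lack one at this depth. No comparison between these clusters can be read at this depth.

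Between conditions, the Cst6-rich cells of the Wounded library had 350 of 5554 measured genes (6.3%) at least 2-fold higher than those of the Normal library and 218 (3.93%) at least 2-fold lower. Many of these differences were also seen in other cells: of the higher genes measured in the other Suprabasal cells 222 of 308 (72.1%) differed 2-fold or more in the same direction there, as did 129 of 177 (72.9%) of the lower genes. Of all 4992 genes measured in both kinds of cell, 13.7% were 2-fold higher and 7.97% 2-fold lower in the other Suprabasal cells. In Basal cells this held for 150 of 313 (47.9%) and 134 of 203 (66.0%), while 67 and 19 of those measured there had the opposite sign, and in Rectum cells for 109 of 260 (41.9%) and 80 of 147 (54.4%). The shares over all genes measured there were 10% higher and 11.1% lower in Basal cells and 6.96% and 3.86% in Rectum cells. The libraries were made with different Cell Ranger versions and gene lists according to the file headers, so condition, library and processing cannot be told apart. The largest ratios were shared by other clusters: Atp6v0c had 3971 UMIs against 0 (at least 8.52 on the log2 scale), and stood at least 5.89 higher in the other Suprabasal cells and 9.69 higher in Basal cells, and Rnasek (6.92, and 5.96 in Basal cells) and Nme2 (6.73, and 6.67 in Basal cells) were alike. Mrpl53 (6.17), Dmbt1 (5.91), Ube2v1 (5.81), Tmem265 (5.62), Galnt2 (at least 5.56), Gng10 (5.25) and Fdx1l (at least 5.04) followed. Among the lowest were Wdr89 (-5.00), Ptp4a1 (-4.84), Coro1b (-3.89), BC100530 (-3.09), Sap18b (-2.91), Gstp1 (-2.90), H2-Q4 (-2.89), Taf6l (-2.78) and Lipk (-2.47). Several of these may have close relatives or processed copies in the genome. Whether reads were assigned to them differently in each gene list was not tested.

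Levels in this comparison were scaled to the UMIs of genes in both feature lists, which shifts them slightly from those above. Among the genes described above, kallikreins were lower in the Wounded library in 4 of 7 cases and higher in 0 (median log2 -1.32). Klk13 was at 185 against 647 CPM (-1.80), Klk8 at 76.1 against 217 CPM (-1.51), Klk11 at -1.48 and Klk12 at -1.32, while Klk14 (-0.89), Klk10 (-0.79) and Klk7 (-0.38) stayed under 2-fold. For Klk14 this rested on single cells: without the cell with most Klk14 UMIs in each library it was at 60 against 89 UMIs, 11.2 against 59.99 CPM (-2.43). Defb6 was at 3858 against 11808 CPM (-1.61), Slpi at 2316 against 5314 CPM (-1.20), and Krt16, a keratin of activated epidermis, at 46.0 against 186 CPM (-2.01). Wfdc18 was higher, at 1145 against 226 CPM (2.34). Krt79 (-0.31), Krt17 (0.06) and Gabrp (0.12) differed little. Of the immediate-early genes, which also respond to tissue dissociation, 7 of 14 were higher and 0 lower (median 0.91), with Atf3 at 395 against 50.1 CPM (2.98), Fosb at 2.41 and Jun at 1.17. In the other Suprabasal cells Atf3 and Jun were at 3.64 and 1.49, while in Basal cells Atf3 was at -4.56. The part of dissociation in these ratios was not tested. Of the rectum markers, 2 of 2 measured were also higher in the Wounded Cst6-rich cells (median 2.34), and the cause was not tested.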

How the data were processed

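Matrices of raw UMI counts made with Cell Ranger were deposited by the authors, along with a table per library of filtered, named cells. The values the authors gave in that table are natural log values, ln(1 + n) with n a whole number, and how n was made is not given in the sources used here. Only the cell names of those tables were used for the results. The submitters' processing notes name Cell Ranger 3.1.0, Seurat 3.2.2 and mm10, whereas the header of the Wounded counts names Cell Ranger 4.0.0. The study's filters kept cells with over 200 and under 5000 genes and under 25% mitochondrial UMIs.

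UMIs were summed over the cells of a group and divided by the group's UMIs other than Cst6. With Cst6 kept in the totals, the median log2 ratio of all genes moved from -0.00 to -0.18 (Normal) and from -0.17 to -0.32 (Wounded). Ratios have exact binomial, levels exact Poisson and shares of cells exact Clopper-Pearson intervals at 95%. A group at 0 was set against 3 UMIs over the group. Cells with fewer than 2000 UMIs were left out of thinned shares. No doublet caller was run. The text names the 3 markers, the 20 higher and 10 lower genes ranked on the smaller of their ratios in both libraries, the 10 highest and 10 lowest genes of Wounded over Normal (both without Gm, Rik, mitochondrial and ribosomal protein genes), ZsGreen1 and members of 22 gene lists. Not every gene this rule selects is reported here. Genes named for differences within the Cst6-rich cells were chosen after their values were seen. The members and lists were chosen with earlier results of these data known. Python 3.11.15, numpy 2.4.6, scipy 1.17.1, pandas 2.3.3 and matplotlib 3.10.9 were used, and the ratio was tested on simulated data. Those data were Poisson counts without spread between cells, so they cannot show how the ratio behaves where a few cells hold most UMIs. Alternatives covered the Cst6 limit, the totals, thinning, the UMI minimum, the deepest cells, the cell with the most UMIs of a gene, cycling cells and the deposited whole numbers.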

Additional observations from a re-analysis of the deposited data

Results flagged for a closer look

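Krt1 and Stfa3 were the 2 genes at least 2-fold apart in both libraries but in opposite directions. Krt1 was lower in the Cst6-rich cells than in the other Suprabasal cells of the Normal library (log2 -2.95) and higher in the Wounded library (1.10). Stfa3 was at -1.56 and 1.63. The difference between libraries was not tested, since each condition was 1 library. In the other Suprabasal cells of the Normal library 5 cells held 84.9% of the 769 Krt1 UMIs and 5 cells held 73.7% of the 623 Stfa3 UMIs. In the Cst6-rich cells of the Wounded library 5 cells held 80.3% of the 772 Krt1 UMIs and 29.9% of the 2516 Stfa3 UMIs.

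Barcodes that passed the filters but carry no cluster name were not part of the comparisons. Of these, 5 of 610 in the Normal and 4 of 1078 in the Wounded library held 1% or more Cst6, with Spink5 at 1457 and 179 CPM and 0 UMIs of Klk14.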

How the results depend on the processing

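No paired analysis was possible because each condition is 1 library, and for the same reason no library could be left out. Of all genes, 147 were higher in the Normal library, against 225 with Cst6 at 0.5% or more, 245 after thinning, 447 at 30 or more UMIs and 50 at 300 or more. Lower there were 132 genes, against 529 at 30 UMIs, 36 at 300 UMIs, 84 with the deposited whole numbers and 35 without cycling cells. In the Wounded library 440 were higher, against 271 at 300 UMIs and 811 with the deposited whole numbers, and 861 were lower, against 1301 after thinning, 1790 at 30 UMIs, 301 at 300 UMIs, 565 with the deposited whole numbers and 511 without cycling cells. In both libraries 109 were higher and 71 lower, against 216 and 273 at 30 UMIs, 45 and 18 at 300 UMIs and 61 and 11 without cycling cells. Within the Cst6-rich cells, a limit of 20% gave 55 genes lower in both, against 29 at 15%. Wounded over Normal gave 350 higher and 218 lower, against 695 and 464 after thinning, 766 and 499 at 30 UMIs and 134 and 99 at 300 UMIs. Lists with a median of 1 or more in the Normal library numbered 6, against 3 with Cst6 in the totals and 3 after thinning. Lists at -1 or less there numbered 3, against 1 at 300 UMIs and 0 without cycling cells, and in the Wounded library 4, against 2 without cycling cells. The median of the bulge and germ markers in the Wounded library, -1.07, was 0.12 without the 5% of cells with most UMIs and 0.11 without cycling cells. The share of Cst6-rich cells with a ZsGreen1 UMI was 0% after thinning and 6.67% without it. The cause of these shifts was not tested.

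The settings without cycling cells, without the 1 cell with the most UMIs of a gene (also for kallikreins in Wounded over Normal) and with limits of 10% and 20% within the Cst6-rich cells were chosen after seeing the data. The 30 named genes kept their direction in 716 of 716 values and stayed past 2-fold in 707, but 165 left the main interval. The other 9 were lower genes without cycling cells, and 4 more values there, Top2a among them, had 3 UMIs or fewer in both groups and give no ratio. Klk14 went from 6.11 to at least 1.61 (Normal) and from at least 6.88 to at least 4.0 (Wounded) after thinning, and to at least 3.91 and 3.8 without the deepest cells, bounds set by the few UMIs left. Klk7 in the Normal library went from 5.95 to 2.99 after thinning.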
